A study of Mus musculus with 10 samples.

Results

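Neurotrophins are secreted growth factors, and the 7 genes described here encode 3 of them and 4 of their receptors: Bdnf (brain-derived neurotrophic factor), Ntf3 and Ntf5 (ligands), Ntrk2 (TrkB) and Ntrk3 (TrkC), which are receptor tyrosine kinases, Ngfr (the p75 receptor) and Sort1 (sortilin). They were picked by name out of 55414 Ensembl gene IDs counted in each library, with earlier results of these data known. All 7 had an ID in the files, and all 7 passed the filter on low counts. The tissue was the trigeminal ganglion, where the sensory neurons of the face have their cell bodies, dissected from C57Bl6 mouse embryos at E13.5, and its RNA was sequenced in bulk. The Prdm12-/-; Sox10 Venus+ group (knockout libraries 16, 29, 42, 49 and 50) was set against the Prdm12+/+; Sox10 Venus+ group (wild-type libraries 22, 24, 32, 35 and 45), so both groups carry the Sox10 Venus label. Prdm12 encodes a zinc finger protein needed for nociceptor development, and the genotype labels name no Cre or other driver that would limit its loss to a cell type. The labels name no cell sort, no pooling of embryos and no part of Prdm12 that the allele lacks. The sample titles begin with another letter in each group, and whatever that letter marks cannot be told apart from genotype.

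A neurotrophin is made as a precursor, cleaved by furin-like proteases, and bound as a dimer by a Trk receptor, which signals through the ERK, AKT and phospholipase C routes. TrkB binds brain-derived neurotrophic factor and the Ntf5 product, and TrkC binds the Ntf3 product. The p75 receptor binds every neurotrophin and, together with sortilin, their uncleaved precursors. In sensory ganglia the Trk receptors mark broad classes of neurons, TrkB and TrkC being found among the touch and proprioceptive ones. Glia and connective tissue also express some of these genes: p75 is found on Schwann cell precursors, a truncated TrkB without the kinase on several non-neuronal cells, and Ntf3 in mesenchyme and epithelium. The counts are per gene and do not separate kinase-bearing from truncated receptor transcripts. In bulk tissue, fewer cells of a type and less RNA per cell cannot be told apart.

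Total counts ranged from 3258008 (knockout 49) and 13603690 (knockout 29) to 33556002 (knockout 16), and the other 7 libraries held at least 27308327. Levels are given as CPM, read counts divided by library size with TMM scaling. Prdm12 was at 8.74, 42.7, 10.1, 12.2 and 17.0 CPM in knockout libraries 16, 29, 42, 49 and 50, against 148, 178, 246, 264 and 74.3 CPM in wild-type libraries 22, 24, 32, 35 and 45, and the groups did not overlap. All 9 sensory neuron markers checked were above the filter. Among them, Isl1 was at 364 ± 100.03 CPM in knockout ganglia and 630 ± 233 CPM in wild-type ganglia (SD, n = 5 each). Isl1 does not stand for the list: 3 of the 9 had a positive log2 fold change, with a median of -0.12 (range -0.83 to 0.13). In edgeR 0 of the 9 passed, and 4 had an unadjusted p under 0.05. Wild-type 32 and 35 stood apart by low mesenchyme and macrophage RNA, though not by low glial RNA. Their mesenchyme markers summed to 923 and 1206 CPM, against 2968 to 11216 CPM in knockout ganglia and 4761 to 6444 CPM in the other wild-type libraries. Their endothelial and pericyte sums (301 and 373 CPM) were also the lowest, but wild-type 24 was close to them (416 CPM). Knockout 29 stood apart by Sox10, a glial transcription factor, at 3764 CPM, while its level was 390 to 844 CPM in the remaining knockout samples and 573 to 1375 CPM in wild-type ganglia. Knockout 16 stood apart by central nervous system markers, which summed to 269.5 CPM, against 13.2 to 64.4 CPM in the other 4 knockout samples and 8.53 to 69.4 CPM in wild-type ganglia. Knockout 49, the shallowest library, stood apart by epithelium markers, which summed to 263.5 CPM, against 24.95 to 82.5 CPM in the other 4 knockout samples and 10.96 to 63.0 CPM in wild-type ganglia. Epcam made up 143.6 CPM of that sum. The list did not move as 1: Cdh1 was highest in knockout 42, and Krt5, Krt14, Krt15 and Trp63 were highest in knockout 29. Over all 18005 genes tested with edgeR's quasi-likelihood test, 17 were higher and 67 lower in the knockout at an adjusted p (Benjamini-Hochberg) under 0.05.

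Of the 7 genes, Ntrk2 and Bdnf rose in the knockout, none fell, and 5 did not pass. Among all genes tested, 0.0944% passed as higher, 0.372% as lower and 0.467% in either direction. Of these 18005 genes, 2364 had an unadjusted p under 0.05 and 8328 had a positive log2 fold change. The same 2 genes, and no other of the 7, had all knockout libraries above all wild-type ones, which held for 1.29% of the genes tested (2.92% were separated with the knockout lower, 4.21% in either direction). The median log2 fold change of the 7 was 0.26, against -0.03 for all genes tested. DESeq2, a second count test, called 3 of the 7 higher, adding Ntrk3, where it called 2.31% of all genes higher and 1.38% lower.

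Ntrk2 (ENSMUSG00000055254, chromosome 13), the TrkB receptor, was at 323, 363, 457, 344 and 314 CPM in knockout libraries 16, 29, 42, 49 and 50, against 176, 167, 126, 167 and 184 CPM in wild-type libraries 22, 24, 32, 35 and 45. Every knockout library lay above every wild-type library, with a gap between 314 and 184 CPM. The means were 360 ± 57.3 CPM in knockout ganglia and 164 ± 22.3 CPM in wild-type ganglia (SD, n = 5 each), which gave a log2 fold change of 1.14 (SE 0.15, 95% interval 0.81 to 1.46, edgeR adjusted p = 0.00682). Each value rested on 1187 counts or more. The call was lost without wild-type 32 and 35 together (log2 fold change 1.09, adjusted p = 0.0803).

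Mesenchyme content moved with Ntrk2 at 1 end of each genotype. Knockout 42 had the highest Ntrk2 level and the highest mesenchyme sum (11216 CPM), and wild-type 32 had the lowest of both. Knockout 29 had the lowest mesenchyme sum of its group (2968 CPM, against 4761 to 6444 CPM in wild-type 22, 24 and 45). Its Ntrk2 level was 363 CPM, against 167 to 184 CPM in those 3 wild-type libraries. The endothelial and pericyte sum of knockout 29 was 919 CPM, above every wild-type library. Its glia markers summed to 5593 CPM, against 1600 to 2909 CPM in wild-type ganglia. Of 10 mesenchyme markers none passed the threshold, and 7 had a positive log2 fold change. For this and the marker counts that follow, 8328 of all 18005 genes tested were positive and 2364 had an unadjusted p under 0.05. Endothelial and pericyte markers summed to 583 to 1405 CPM in knockout ganglia and 301 to 700 CPM in wild-type ganglia. All 12 of them had a positive log2 fold change, none passed in edgeR (10 had an unadjusted p under 0.05), and DESeq2 called 6 higher. Knockout 16, whose endothelial sum of 583 CPM lay within the wild-type range, had 323 CPM of Ntrk2, but it is also the library with the high central nervous system sum; without it the log2 fold change of Ntrk2 was 1.17 (edgeR adjusted p = 0.0188). Of the other marker lists, all 10 macrophage, all 8 erythroid and all 6 tested epithelium markers had a positive log2 fold change, as did 9 of 10 tested central nervous system markers. None of these passed in edgeR, with 1 at an unadjusted p under 0.05 in each list. DESeq2 called 1 central nervous system marker higher and 0 in the other 3 lists. Muscle markers went the other way, with 0 of 8 positive and a median log2 fold change of -0.64. Glia markers were mixed, with 6 of 11 positive, and none of either list passed in edgeR. The part of these cells in the Ntrk2 difference was not tested.

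The start-site windows of Ntrk2 and Bdnf are shown because these are the 2 members that rose; they run from 250 bases before to 50 after the annotated start and come from RefSeq (GRCm38.p6). The Ntrk2 window is chr13:58806319-58806618 on the plus strand, and the Bdnf window, 1 of 7 annotated for that gene, is chr2:109692186-109692485 on the plus strand. Capitals mark TGTGGT, the core bound by Runx factors, in the Ntrk2 window, and TCACGTCA, a variant of the cyclic AMP response element, in the Bdnf window.
Ntrk2: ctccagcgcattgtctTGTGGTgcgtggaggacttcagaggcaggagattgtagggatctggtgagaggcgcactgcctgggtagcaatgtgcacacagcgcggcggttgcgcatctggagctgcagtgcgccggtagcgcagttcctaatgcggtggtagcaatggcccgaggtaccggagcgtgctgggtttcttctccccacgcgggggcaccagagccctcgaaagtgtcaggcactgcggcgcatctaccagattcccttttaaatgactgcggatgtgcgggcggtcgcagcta
Bdnf: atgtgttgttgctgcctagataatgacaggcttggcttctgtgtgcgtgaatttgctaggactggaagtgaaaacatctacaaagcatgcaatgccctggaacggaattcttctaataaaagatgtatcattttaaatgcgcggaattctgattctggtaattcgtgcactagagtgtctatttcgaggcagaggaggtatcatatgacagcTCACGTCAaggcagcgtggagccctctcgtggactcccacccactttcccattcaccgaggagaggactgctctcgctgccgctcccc
On both strands of the 11 windows that 4 of the 7 members had (Ntrk2, Ngfr, Bdnf and Ntf3), TGTGGT occurred in 1 window and TCACGTCA in 1, and neither overlapped another motif searched. TGTGGT was present in 16.8% of all 32851 RefSeq windows of this length and TCACGTCA in 0.441%. The full element TGACGTCA (1.79% of all windows) and the homeodomain core TAATTA (5.29%) were in 0 of the 11, and the E-box CANNTG was in 10, against 72.3% of all windows. The motifs were chosen with the expression results and the windows in view, and a match is only a run of letters. Gene counts do not show which Bdnf start was used.

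**Figure D1:**
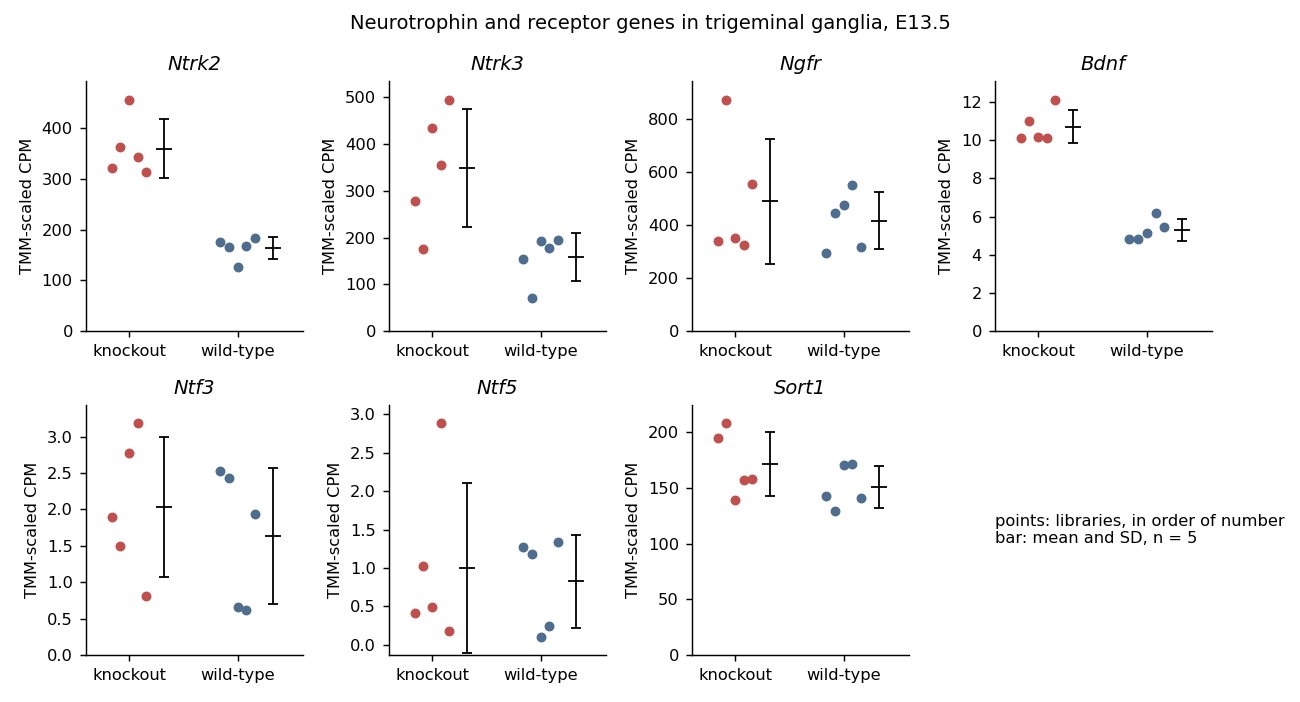
Level of each of the 7 genes in TMM-scaled CPM (linear axes) in knockout (left, red) and wild-type (right, blue) libraries, ordered by library number within a group; bars are the mean and SD of 5 libraries. The knockout points of Ntrk2 (314 to 457 CPM) and Bdnf (10.1 to 12.1 CPM) all lie above the wild-type points, and those of the other 5 genes overlap them.

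Ntrk3 (ENSMUSG00000059146, chromosome 7), the TrkC receptor, was at 279, 176, 435, 355 and 495 CPM in knockout libraries 16, 29, 42, 49 and 50, against 154, 70.6, 194, 177 and 194 CPM in wild-type libraries 22, 24, 32, 35 and 45. In 4 of 5 knockout libraries the level was above every wild-type library, while knockout 29 lay inside the wild-type range. The means were 348 ± 126 CPM in knockout ganglia and 158 ± 51.4 CPM in wild-type ganglia (SD, n = 5 each). The log2 fold change of 1.14 (SE 0.32, 95% interval 0.45 to 1.83) was as large as that of Ntrk2 but did not pass in edgeR (adjusted p = 0.166, unadjusted p = 0.00379). The spread between libraries differed: the SD was 36.2% of the mean for Ntrk3 and 15.9% for Ntrk2 in the knockout, and 32.6% and 13.6% in the wild type. Without knockout 29 the log2 fold change was 1.35 (edgeR adjusted p = 0.079), and without wild-type 24 it was 1.00 (0.9984 before rounding, edgeR adjusted p = 0.12). DESeq2 called Ntrk3 higher (adjusted p = 0.0132), as did limma voom with sample weights (adjusted p = 0.00858). Both called more genes than edgeR did: of 18005 genes, 399 were higher in DESeq2 and 1264 in limma voom, against 17 in edgeR.

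Bdnf (ENSMUSG00000048482, chromosome 2), the TrkB ligand, had a low level and a narrow spread. It was at 10.1, 11.02, 10.2, 10.1 and 12.1 CPM in knockout libraries 16, 29, 42, 49 and 50, against 4.80, 4.83, 5.16, 6.21 and 5.46 CPM in wild-type libraries 22, 24, 32, 35 and 45. The groups did not overlap, and in neither did the SD exceed 10.96% of the mean. The means were 10.7 ± 0.878 CPM in knockout ganglia and 5.29 ± 0.580 CPM in wild-type ganglia (SD, n = 5 each), which gave a log2 fold change of 1.02 (SE 0.16, 95% interval 0.66 to 1.38, edgeR adjusted p = 0.0226). The value of knockout 49 came from 35 counts and the others from 140 to 347. The call was lost under 11 of 20 alternatives, 7 of which leave out a single library (knockout 42, 49 or 50, or wild-type 22, 32, 35 or 45, with edgeR adjusted p of 0.0534 to 0.0977), while the log2 fold change stayed between 0.97 and 1.36. The marker sums given for Ntrk2 stand beside Bdnf too, with all 12 endothelial markers positive and 10 of them at an unadjusted p under 0.05, and the part of these cells in the Bdnf difference was not tested.

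The other 2 ligands were close to the limit of counting. Ntf3 (ENSMUSG00000049107, chromosome 6), the TrkC ligand, was at 1.90, 1.49, 2.77, 3.19 and 0.804 CPM in knockout libraries 16, 29, 42, 49 and 50, against 2.54, 2.43, 0.658, 0.614 and 1.94 CPM in wild-type libraries 22, 24, 32, 35 and 45. The groups overlapped almost entirely (log2 fold change 0.26, SE 0.50, 95% interval -0.83 to 1.34, edgeR adjusted p = 0.848), on 11 to 78 counts per library. The lowest values were in wild-type 32 and 35, where mesenchyme and macrophage markers were also lowest, and in knockout 50, where the mesenchyme sum was 6590 CPM, the second highest of its group. Ntf5 (ENSMUSG00000074121, chromosome 7), the other TrkB ligand, was at 0.415, 1.02, 0.498, 2.90 and 0.175 CPM in those knockout libraries, against 1.27, 1.18, 0.104, 0.239 and 1.34 CPM in those wild-type libraries. It rested on 3 to 38 counts per library, and its log2 fold change of -0.12 had a 95% interval from -1.86 to 1.62 (edgeR adjusted p = 0.961). At this depth no change was detectable within that interval, and the sign changed under 9 of 19 alternatives (range -1.18 to 0.26).

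Ngfr (ENSMUSG00000000120, chromosome 11), the p75 receptor, was at 339, 874, 353, 327 and 557 CPM in knockout libraries 16, 29, 42, 49 and 50, against 296, 445, 475, 551 and 318 CPM in wild-type libraries 22, 24, 32, 35 and 45. The groups overlapped: knockout 29 and 50 were above every wild-type library, and the other 3 knockout libraries lay in the lower part of the wild-type range. The log2 fold change was 0.23 (SE 0.30, 95% interval -0.42 to 0.88, edgeR adjusted p = 0.751), and it was -0.049 without knockout 29. Knockout 29 also had the highest mean level of the 11 glia markers, 7.30 on the log2 CPM scale against 6.04 to 6.66 in the other knockout libraries and 5.81 to 6.73 in wild-type ganglia. The part of glial RNA in the Ngfr level was not tested.

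Sort1 (ENSMUSG00000068747, chromosome 3), the sortilin gene, was at 195, 208, 140, 158 and 158 CPM in knockout libraries 16, 29, 42, 49 and 50 (139.5 CPM, the lowest, in knockout 42), against 143, 129, 170, 172 and 141 CPM in wild-type libraries 22, 24, 32, 35 and 45. Knockout 16 and 29 were above every wild-type library and the other 3 knockout libraries were among them. The log2 fold change was 0.19 (SE 0.14, 95% interval -0.13 to 0.50, edgeR adjusted p = 0.581).

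**Figure D2:**
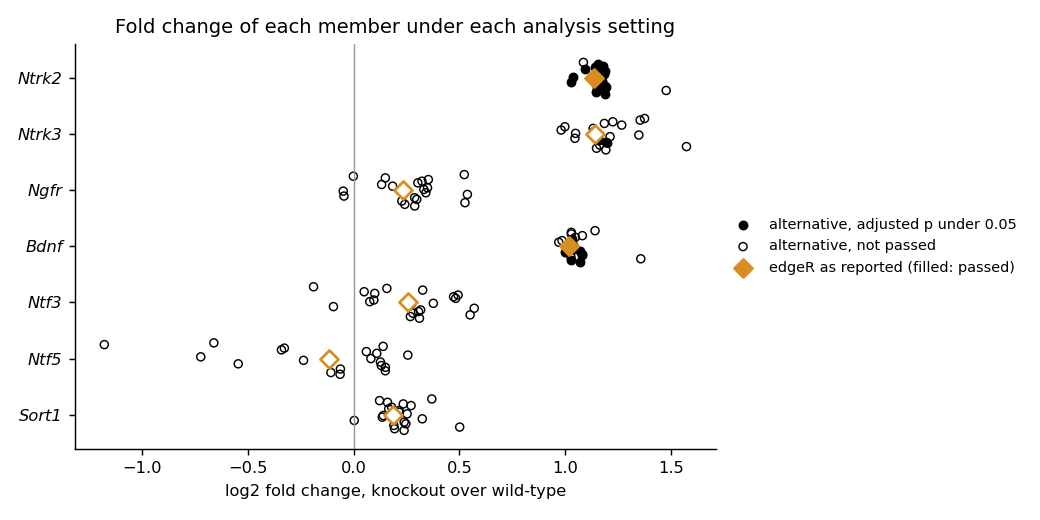
Log2 fold change (knockout over wild-type) of each gene as reported (diamond) and under each alternative analysis (circles; filled where the adjusted p was under 0.05). Ntrk2 stays between 1.03 and 1.48 and Bdnf between 0.97 and 1.36, Ntrk3 is as far to the right but mostly open, and Ngfr, Ntf3 and Ntf5 cross 0.

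Levels of different genes were compared per length, as CPM per kilobase of the union of exons in GENCODE M21 (GRCm38). The authors' own annotation may differ, and long or alternative untranslated exons lower these values for Ntrk2 (19292 bases) and Ntrk3 (30170 bases). On this scale Ngfr was the highest, at 142 ± 68.1 CPM per kilobase in the knockout and 121 ± 31.3 in wild-type ganglia (SD, n = 5 each). Sort1 followed at 22.7 ± 3.79 CPM per kilobase in the knockout and 19.9 ± 2.51 in wild-type ganglia (19.95 before rounding). Ntrk2 was next at 18.7 ± 2.97 CPM per kilobase in the knockout and 8.50 ± 1.15 in wild-type ganglia, then Ntrk3 at 11.5 ± 4.17 in knockout ganglia and 5.23 ± 1.70 in wild-type ganglia. The ligands came last, with Bdnf at 1.72 ± 0.141 CPM per kilobase in the knockout and 0.851 ± 0.0933 in wild-type ganglia. Ntf3 was at 1.19 ± 0.561 CPM per kilobase in the knockout and 0.954 ± 0.548 in wild-type ganglia, and Ntf5 at 0.377 ± 0.416 in knockout ganglia and 0.312 ± 0.227 in wild-type ganglia (0.3115 before rounding).

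The order of the 4 receptors by means was the same in both genotypes, while Bdnf was above Ntf3 in the knockout and below it in the wild type, with overlapping values in each. In the knockout, Ntrk2 (16.3 to 23.7 CPM per kilobase) overlapped Sort1 (18.4 to 27.5), and Ntrk3 (5.84 to 16.4) just reached Ntrk2. In the wild type, Ntrk2 (6.54 to 9.53) lay below every value of Sort1 (17.1 to 22.7) and above every value of Ntrk3 (2.34 to 6.42). Bdnf and Ntf3 overlapped in both genotypes, at 1.63 to 1.95 and 0.469 to 1.86 CPM per kilobase in the knockout and at 0.773 to 0.999 and 0.358 to 1.48 in wild-type ganglia (0.3585 before rounding for the lowest).

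The balance between receptors was read as the ratio of counts within a library, which needs no scaling between libraries. The Ntrk2/Ntrk3 ratio was 1.16, 2.06, 1.05, 0.969 and 0.636 in knockout libraries 16, 29, 42, 49 and 50, against 1.14, 2.36, 0.652, 0.944 and 0.949 in wild-type libraries 22, 24, 32, 35 and 45. The groups overlapped over nearly their whole range, and the largest ratio of each came from the library with its lowest Ntrk3. The mean log2 ratio was 0.13 ± 0.61 in knockout ganglia and 0.13 ± 0.69 in wild-type ganglia (SD, n = 5 each), a difference of -0.0059 (exact two-sided permutation p = 0.984).

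Set against Ngfr, both Trk genes were higher in most knockout libraries. The Ntrk2/Ngfr count ratio was 0.952, 0.416, 1.29, 1.05 and 0.564 in knockout libraries 16, 29, 42, 49 and 50, against 0.594, 0.375, 0.266, 0.303 and 0.578 in wild-type libraries 22, 24, 32, 35 and 45. In 3 of 5 knockout libraries it was above every wild-type library, and knockout 29 and 50, the 2 with the highest Ngfr of their group, were not. The mean log2 ratio was -0.34 ± 0.68 in knockout ganglia and -1.32 ± 0.53 in wild-type ganglia, a difference of 0.97 (exact two-sided permutation p = 0.0476, adjusted over 4 ratios 0.19). Ntrk3/Ngfr was above every wild-type library in 4 of 5 knockout libraries, with a mean log2 ratio of -0.47 ± 1.05 in knockout ganglia and -1.45 ± 0.76 in wild-type ganglia (difference 0.98, exact permutation p = 0.135, adjusted 0.27). Between the ligands, Bdnf/Ntf3 had a mean log2 ratio of 2.55 ± 0.90 in knockout ganglia and 1.94 ± 1.14 in wild-type ganglia (1.135 before rounding for the last SD; exact permutation p = 0.357, adjusted 0.476), with 1 of 5 knockout libraries above the wild-type range.

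**Figure D3:**
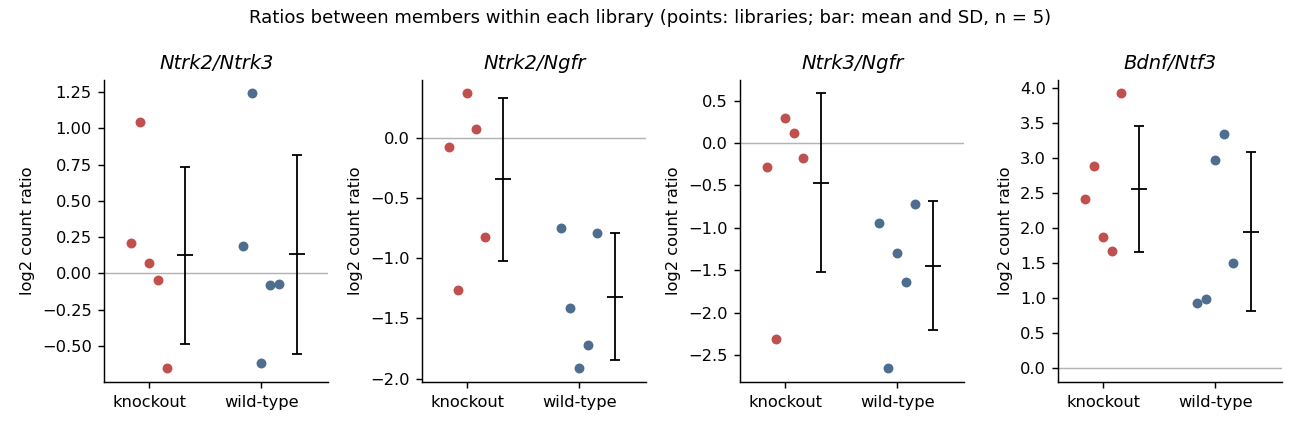
Log2 ratio of the counts of 2 genes within each library, knockout left and wild-type right; bars are the mean and SD of 5 libraries and the grey line marks equal counts. Ntrk2/Ntrk3 has the same mean in both groups (0.13), while for both ratios to Ngfr the knockout mean is higher by about 1 with overlapping points.

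Relative to neuronal RNA, Ntrk2 and Bdnf were again separated, but the share of all genes separated on this scale was not counted. Per 1000 counts of 20 general neuronal genes, Ntrk2 had 22.5, 21.1, 53.7, 42.9 and 26.3 counts in knockout libraries 16, 29, 42, 49 and 50, against 16.6, 11.8, 6.75, 8.71 and 15.9 in wild-type libraries 22, 24, 32, 35 and 45 (15.95 before rounding for the last). Bdnf had 0.638 to 1.26 in knockout ganglia and 0.276 to 0.473 in wild-type ganglia, without overlap. Ntrk3 had 10.2 to 51.1 in knockout ganglia and 4.996 to 16.8 in wild-type ganglia, with knockout 29 alone inside the wild-type range. Under this scaling, which moved the median log2 fold change of all genes to 0.29, Ntrk2 had a log2 fold change of 1.48 (1.477 before rounding) with an SE of 0.34 and an edgeR adjusted p of 0.103, and Bdnf had 1.36 with an adjusted p of 0.139. Ngfr (log2 fold change 0.53, edgeR unadjusted p = 0.0425) and Sort1 (0.50, edgeR unadjusted p = 0.0481) also moved up under this scaling, without passing. Of 18005 genes, 1533 were then higher at an unadjusted p under 0.05. The general neuronal genes themselves summed to 8015 to 17261 CPM in knockout ganglia and 10612 to 19178 CPM in wild-type ganglia. Of these 20 genes, 17 had a negative log2 fold change, where 8328 of all 18005 genes tested had a positive one. None of the 20 passed in edgeR (4 had an unadjusted p under 0.05, and DESeq2 called Elavl4 lower).

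Covariation was examined with the genotype mean removed, over 10 libraries and all 21 pairs of the 7 genes, with exact permutations within each genotype. No pair passed after Benjamini-Hochberg adjustment over the 21. The pair with the highest r was Ntf3 and Ntf5 (r = 0.846, exact permutation p = 0.0075, adjusted 0.158; rho = 0.782, exact permutation p = 0.0213, adjusted 0.112), and r was 0.783 without the 2 libraries farthest from the median of Ntf3, knockout 50 and wild-type 35. Both genes were lowest or nearly so in wild-type 32 and 35 and in knockout 50 and highest in knockout 49 within its group. The epithelium sum was likewise lowest in wild-type 32 and 35 (11.19 and 10.96 CPM) and highest in knockout 49 (263.5 CPM, of which Epcam made up 143.6 CPM). In knockout 50 the sum was 33.7 CPM, above the 24.95 CPM of knockout 16. By mean log2 CPM of the 6 tested epithelium markers, knockout 50 was the lowest of its group. Its mean was 0.22, against 0.67 (knockout 16) to 3.01 (knockout 49) in the other knockout libraries. Without knockout 49 the log2 fold change was 0.096 for Ntf3 and -0.72 for Ntf5. Bdnf and Ntf3 had a negative r (r = -0.788, exact permutation p = 0.0152, adjusted 0.16; rho = -0.842, exact permutation p = 0.0104, adjusted 0.112), but r was -0.498 without knockout 50 and wild-type 35, so its size rested in part on those libraries. Ngfr and Ntf3 also had a negative r (r = -0.66, exact permutation p = 0.0423, adjusted 0.296; rho = -0.733, exact permutation p = 0.0163, adjusted 0.112), with r at -0.73 without knockout 29 and wild-type 35. Beyond the shift between genotypes, no relation was detected between Ntrk2 and Ntrk3 (r = -0.052, exact permutation p = 0.862) or between Ntrk2 and Bdnf (r = -0.139, exact permutation p = 0.684). Wild-type 32 and 35, which had the highest general neuronal and the lowest mesenchyme levels, were at the low end of Ntf3 and Ntf5, and the part of cell content in these values was not tested.

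**Figure D4:**
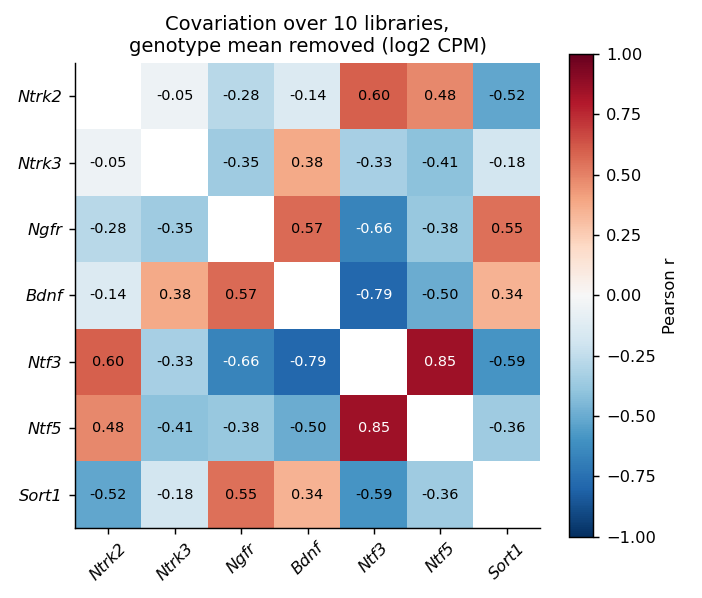
Pearson r between the 7 genes over 10 libraries after removing each genotype's mean from log2 CPM; red is positive and blue negative. Ntf3 pairs most strongly with Ntf5 (0.85) and against Bdnf (-0.79), and Ntrk2 with Ntrk3 is near 0 (-0.05).

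As a description over 15526 other named genes with a mean of at least 1 CPM, the closest patterns to Ntrk2 with the genotype mean removed were Chsy3 (r = 0.941), a chondroitin sulfate synthase gene, Oit3 (r = 0.921) and Vwf (r = 0.899; 0.8995 before rounding), the von Willebrand factor gene of endothelium. Over the 10 libraries without centring they were Gaa (r = 0.957), the lysosomal alpha-glucosidase gene, Pex26 (r = 0.95), a peroxisome biogenesis gene, and App (r = 0.948), the amyloid precursor gene. For Ntrk3 the closest with centring were Acap2 (r = 0.982), Gm20045 (r = 0.978) and Dnajc13 (r = 0.974), and without centring Slc36a1 (r = 0.966; 0.9655 before rounding), 4930578C19Rik (r = 0.94) and Cdh13 (r = 0.94; 0.9395 before rounding), a cadherin gene. For Bdnf the closest with centring were Gm9369 (r = 0.874), Gm43062 (r = 0.845) and Slc35d3 (r = 0.832), and without centring Wipf3 (r = 0.956), P2rx2 (r = 0.949), an ATP-gated channel gene, and Cpne7 (r = 0.946), the last 2 of which also rose in the knockout (edgeR adjusted p = 0.0152 and 0.0446). With only 10 libraries and so many genes, high values of r arise readily, and none was tested.

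Among 15 transcription factor genes tied to the expression of Trk genes in sensory neurons, 2 fell, none rose and 13 did not pass in edgeR. Over all genes, 0.467% were called in either direction. An unadjusted p under 0.05 was found for 7 of the 15, against 2364 of all 18005 genes tested. DESeq2 called the same 2 lower and Runx3 higher, where it called 1.38% of all genes lower and 2.31% higher. Runx1, which directs the maturation of one class of nociceptors in mice, was at 16.6, 17.3, 13.9, 16.2 and 17.4 CPM in knockout libraries 16, 29, 42, 49 and 50, against 64.0, 66.5, 148, 107 and 65.6 CPM in wild-type libraries 22, 24, 32, 35 and 45 (log2 fold change -2.47, SE 0.25, edgeR adjusted p = 0.00127). Mafa, a factor of early touch receptor neurons, was at 0.454 to 2.82 CPM in knockout ganglia and 7.21 to 19.5 CPM in wild-type ganglia (log2 fold change -3.14, SE 0.53, edgeR adjusted p = 0.0287). Runx3, which in mouse ganglia favours TrkC over TrkB, was at 25.4, 92.5, 22.9, 24.03 and 41.7 CPM in knockout ganglia, against 16.1, 18.4, 14.2, 18.3 and 10.4 CPM in wild-type ganglia, without overlap but not past the threshold in edgeR (log2 fold change 1.42, SE 0.38, edgeR adjusted p = 0.155; DESeq2 adjusted p = 0.00861). Separation with the knockout higher was found for 1.29% of all genes tested. The highest Runx3 level was in knockout 29, the knockout library with the lowest Ntrk3. Shox2, needed for TrkB neurons in mice, was at 16.9 to 49.3 CPM in knockout ganglia and 26.8 to 48.0 CPM in wild-type ganglia (log2 fold change -0.60, edgeR adjusted p = 0.391). The median log2 fold change of these 15 genes was -0.45.

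The downstream machinery of the receptors had no called gene in edgeR. For the counts in this and the following lists, 2364 of all 18005 genes tested had an unadjusted p under 0.05. DESeq2 called 2.31% of all genes higher and 1.38% lower. Of 24 adaptors and scaffolds of Trk receptors, 0 passed (3 with an unadjusted p under 0.05, 0 in DESeq2), with a median log2 fold change of 0.07. Kidins220, a large scaffold of neurotrophin receptors, was at 561 ± 83.0 CPM in knockout ganglia and 631 ± 201 CPM in wild-type ganglia, and Plcg1, the phospholipase that binds Trk, at 290 ± 57.3 CPM in knockout ganglia and 288 ± 48.5 CPM in wild-type ganglia (SD, n = 5 each). Of 26 ERK and AKT cascade genes, 0 passed (4 with an unadjusted p under 0.05, 0 in DESeq2), with a median of -0.17 and a range from -0.43 to 0.34. Akt1 was at 335 ± 79.4 CPM in knockout ganglia and 289 ± 76.3 CPM in wild-type ganglia.

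Genes known to respond to neurotrophin signalling had a median log2 fold change of 0.39. Of 18 tested, 15 were positive, where 8328 of all 18005 genes tested were, but 0 passed in edgeR (5 with an unadjusted p under 0.05). DESeq2 called Vgf, a neurotrophin-induced secreted peptide gene, higher (adjusted p = 0.025). Vgf was at 97.2 ± 84.7 CPM in knockout ganglia and 36.1 ± 10.5 CPM in wild-type ganglia, and Egr1, an early response gene, at 16.7 ± 7.84 CPM in knockout ganglia and 10.3 ± 1.33 CPM in wild-type ganglia, with no overlap for Egr1 (edgeR adjusted p = 0.299). Of all genes tested, 1.29% had every knockout library above every wild-type one. Spred1 and Dusp6, feedback inhibitors of ERK signalling and members of high level in this list, were at 122 ± 28.4 and 77.4 ± 14.6 CPM in knockout ganglia and at 122 ± 7.04 and 60.0 ± 6.47 CPM in wild-type ganglia.

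Among 18 sortilin relatives and p75 partners, 0 passed in edgeR (3 with an unadjusted p under 0.05), with a median log2 fold change of 0.07, and DESeq2 called Sorcs3 and Lingo1 higher. Sorcs3, a sortilin relative, was at 18.5 ± 4.86 CPM in knockout ganglia and 9.86 ± 1.35 CPM in wild-type ganglia (edgeR adjusted p = 0.0856), and Lingo1, a partner of p75, at 116 ± 30.4 CPM in knockout ganglia and 68.0 ± 14.7 CPM in wild-type ganglia (edgeR adjusted p = 0.161), each without overlap between the groups. Such a separation, with the knockout higher, held for 1.29% of all genes tested, and these 2 genes were named after their values were seen. Maged1, a cytoplasmic partner of p75, was at 939 ± 89.1 CPM in knockout ganglia and 942 ± 52.6 CPM in wild-type ganglia, and Rtn4, the gene of the Nogo proteins, at 597 ± 79.0 CPM in knockout ganglia and 636 ± 148 CPM in wild-type ganglia. Of 10 genes for processing of neurotrophin precursors, 7 were tested, 0 passed in edgeR (3 with an unadjusted p under 0.05) and DESeq2 called Mmp9 higher. Mmp9, a matrix metalloprotease gene, was at 24.04 ± 5.18 CPM in knockout ganglia and 7.27 ± 3.73 CPM in wild-type ganglia (edgeR adjusted p = 0.0603). Plat, the tissue plasminogen activator gene, was at 81.1 ± 31.8 CPM in knockout ganglia and 44.2 ± 14.3 CPM in wild-type ganglia, and Pcsk7, a proprotein convertase gene, at 55.2 ± 6.18 CPM in knockout ganglia and 57.1 ± 8.05 CPM in wild-type ganglia. Furin, a precursor convertase gene, was at 65.3 ± 13.49 CPM in knockout ganglia and 44.0 ± 9.45 CPM in wild-type ganglia. Of 19 trafficking and turnover genes, 0 passed in edgeR (5 with an unadjusted p under 0.05), while DESeq2 called Ptprj, a receptor phosphatase gene, higher and Rab27b, a vesicle GTPase gene, lower. Rab27b was at 5.41 ± 1.64 CPM in knockout ganglia and 13.3 ± 4.55 CPM in wild-type ganglia (edgeR adjusted p = 0.103). The 2 genes of highest level in that list were Nedd4, a ubiquitin ligase gene, at 2035 ± 294 CPM in knockout ganglia and 2288 ± 145 CPM in wild-type ganglia, and Ptprs, a receptor phosphatase gene, at 856 ± 284 CPM in knockout ganglia and 695 ± 136 CPM in wild-type ganglia.

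**Figure D5:**
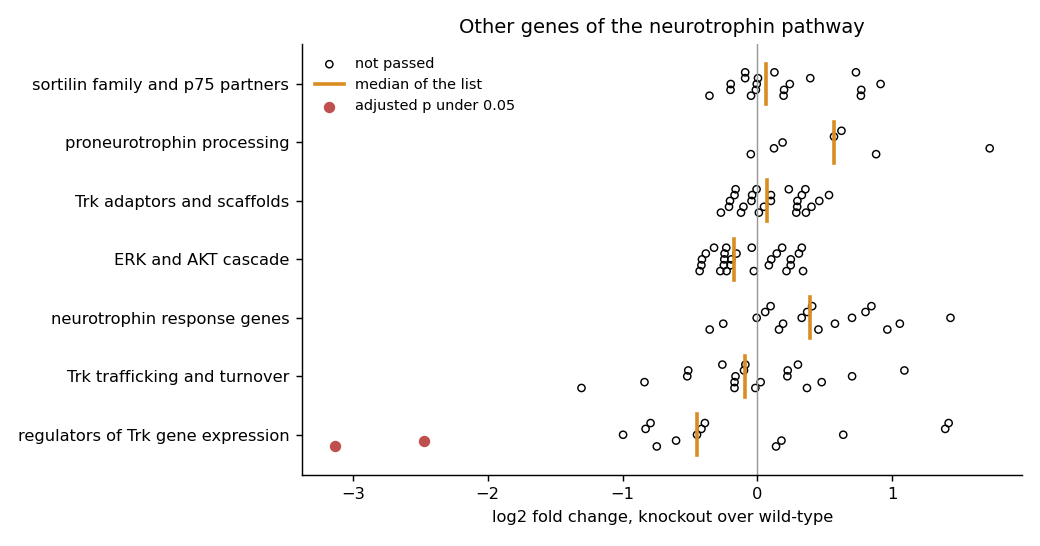
Log2 fold change (knockout over wild-type) of every tested gene in 7 lists of the neurotrophin pathway; orange lines are list medians and filled points passed the threshold in edgeR. Only Mafa (-3.14) and Runx1 (-2.47), both in the list of regulators, are filled.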

How the data were processed

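Raw counts per Ensembl gene were deposited for 10 libraries, 1 file per sample. The submitters' processing notes name STAR 2.7.10a, featureCounts 1.5.0-p1 and the builds GRCm39 and mm10, the builds without a role; how the authors treated strand and multi-mapping reads is not stated there. Symbols came from a table that matched 52081 of 55414 IDs. Genes were filtered with filterByExpr (minimum count 10), scaled with TMM, and tested with the quasi-likelihood test of edgeR 4.0.16 (glmQLFit, glmQLFTest; R 4.3.3), adjusting over all 18005 genes kept with Benjamini-Hochberg and a threshold of 0.05. DESeq2 1.42.0 and limma 3.58.1 (voom) gave alternatives, and the scripts were tested on simulated data. Marker sums are CPM added over all genes of a list, including those below the filter. Marker means are mean log2 CPM (prior count 2) over its tested genes. Count ratios were set against all 252 assignments of libraries (exact, two-sided), for which the smallest p is 0.00794. Correlations used all 14400 exact permutations within genotype, in place of random draws.

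Named genes were all members, Prdm12, pathway genes past the threshold, 2 abundant genes of lists with none, and the 3 closest patterns to Ntrk2, Ntrk3 and Bdnf; other pathway genes named were chosen after their values were seen. The members and lists were chosen with earlier results of these data known. Not every neurotrophin, Trk or pathway gene that these rules cover is reported here. Nothing in the labels ties each library to its own embryo, so the spread behind the p-values may be technical. In 20 pairs of libraries of 1 group, chi-square per gene was at least 9.88, so none was a duplicate. A floor of 3 counts was 0.869 CPM in knockout 49, 0.236 CPM in knockout 29 and at most 0.107 CPM elsewhere, which covers counting error only. Alternatives were other scalings, filters and tests, a neuronal covariate, and leaving libraries out.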

Additional observations from a re-analysis of the deposited data

Results flagged for a closer look

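Among 24 sets of 5 values (7 genes, Prdm12 and 4 ratios in each genotype), 2 held a library far from the rest by Dixon's criterion, where chance gives about 1 in 20. Both are knockout 29. Its Prdm12 level was 42.7 CPM, against 8.74 to 17.0 CPM in the other knockout libraries. Its Ntrk3/Ngfr log2 count ratio was -2.31, against -0.28 to 0.30 in the other knockout libraries.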

How the results depend on the processing

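No paired analysis was possible because the genotypes share no replicate number. The number of genes called higher was 55 with no filter on low counts, 399 with DESeq2, 1264 with limma voom, 37 with a neuronal covariate, 6 without knockout 29 and 49, 0 in edgeR without wild-type 32 and 35 (731 with an unadjusted p under 0.05), and 2 to 35 leaving out single libraries. The number called lower was 37 with neuronal scaling, 102 with no filter, 238 with DESeq2, 1080 with limma voom, 19 without wild-type 32 and 35, and 27 to 88 leaving out single libraries. Ntrk2 kept its direction under all 20 alternatives and its call under 18, and lost it with neuronal scaling (log2 fold change 1.48) and without wild-type 32 and 35 (1.09); leaving out single libraries gave 1.04 to 1.19. Bdnf kept its direction under all 20 and its call under 9, and lost it with neuronal scaling (1.36), with no filter (1.03), without knockout 29 and 49 (1.03) and without wild-type 32 and 35 (1.14); leaving out single libraries gave 0.97 to 1.081. Ngfr reversed with limma voom (-0.045) and without knockout 29 and 49 (-0.0012), and was -0.049 to 0.35 leaving out single libraries. Ntf3 reversed with the neuronal covariate (-0.095) and without wild-type 32 and 35 (-0.19). Ntf5 reversed with neuronal scaling (0.15), DESeq2 (0.15) and limma voom (0.13), and was -0.72 to 0.26 leaving out single libraries; a minimum count of 50 gave it no value. The Ntrk2/Ntrk3 difference was -0.24 to 0.27 leaving out single libraries. The Prdm12 call was lost without knockout 49 (edgeR adjusted p = 0.0561), without knockout 50 (0.0616) and without wild-type 32 and 35 (0.11), each at a log2 fold change of -2.83 or lower. For each of these the cause was not tested. The counts of Ntf3 and Ntf5 limit what can be said of them.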
